A study of Mus musculus with 6 samples.

Results

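Type I interferon-stimulated genes were followed in EMT6 cells, a mouse mammary carcinoma line, after long exposure to an antibody against PD-L1 in culture. The 44 genes were taken as a list of symbols and matched to the rows of the deposited table, which holds 53465 gene identifiers, and each of the 44 had a row and enough reads to be tested. EMT6 cells kept with an isotype control antibody formed the PVITRO group (3 libraries), and the same line kept with αPD-L1 formed the PTRVITRO group (3 libraries), which the labels call an anti-PD-L1 resistant variant. Both antibodies were given at 0.5 μg/ml in medium with serum for longer than 4 weeks, so the controls also carry an antibody, and polyadenylated RNA was sequenced. The labels name no immune cells, added interferon or genetic change in either group. The comparison asks how far exposure of the tumor cells alone to αPD-L1 (Clone 80 in the study's methods) goes with a different interferon-stimulated gene (ISG) program.

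Type I interferons are secreted proteins that bind a receptor made of the IFNAR1 and IFNAR2 chains. The receptor's kinases JAK1 and TYK2 activate a transcription factor complex that contains STAT2 and IRF9 and binds an interferon-stimulated response element near the start of the target genes. Those targets, the ISGs, block virus entry, translation, replication and release, sense foreign nucleic acid and feed back on the pathway, and many tumor cell lines keep a low level of them without added interferon.

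The libraries held between 17757341 and 32426739 counts in total. A floor of 3 counts corresponded to 0.0925 CPM (counts relative to library size, after upper-quartile scaling) in the deepest library and 0.168 CPM in the shallowest, for counting error only. Krt8 and Krt18, keratins of simple epithelium, and the intermediate filament gene Vim were abundant in every library, while the epithelial adhesion genes Epcam and Cdh1 had 30 to 70 counts and 0 to 1 count. The groups did not overlap for Krt18 and Epcam, which lay higher in PTRVITRO (log2 fold changes 0.17 and 0.48, edgeR adjusted p 0.139 and 0.392), or for the basal keratin gene Krt14, which lay lower (-0.25, adjusted p 0.347). Krt8 and Vim overlapped (0.01 and 0.0009). The part of these marker differences in the ISG values was not tested. Of 9 leukocyte and endothelial markers 3 were at 0 in every library, and the 9 summed to 6 to 13 counts in PVITRO and 7 to 13 in PTRVITRO. Over the tested genes, PVITRO replicate 2 lay farther from PVITRO replicates 1 and 3 (chi-square per gene 7.61 and 6.89) than these from each other (2.6). It also stood apart for the ISGs. It was the lowest of the 6 libraries for 29 of the 44 ISGs, against 20.6% of all tested genes, the lowest of the 3 PVITRO libraries for 31 (42.1%), and lay below the mean of PVITRO replicates 1 and 3 for 35 of them (median difference -0.13 on the log2 scale, 55.7% of all tested genes below). PTRVITRO replicate 2 was the highest of the 6 for 20 of the 44, against 11.2% of all genes. Medians of gene groups are therefore also given without PVITRO replicate 2.

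None of the 44 ISGs passed the test between PTRVITRO and PVITRO, but 39 of them lay above 0 on the log2 fold change scale and 5 below. The edgeR quasi-likelihood test, adjusted over 14217 genes, called 0 ISGs at an adjusted p below 0.05, where it called 0.246% of all genes, 0.0985% higher and 0.148% lower in PTRVITRO. DESeq2 called 2, Rsad2 and Oasl1, where it called 0.781% of all genes, and limma-voom called 0, where it called 0.218%. At an unadjusted p below 0.05 there were 11 ISGs, all of them higher in PTRVITRO, beside 11.4% of all genes in either direction, 5.26% in that direction and 6.13% in the other. The median log2 fold change of the ISGs was 0.11, a 1.08-fold difference, and that of all tested genes was -0.004, with 48.5% of all genes above 0. The range ran from -0.12 (Epsti1) to 0.41 (Mx1), and only 4 ISGs differed by at least 1.2-fold. The libraries of the groups did not overlap for 11 ISGs, all higher in PTRVITRO (8.27% of all genes), and for 0 ISGs in the other direction (9.33%). In bulk RNA, fewer cells that express a gene and less RNA per cell cannot be told apart.

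Without PVITRO replicate 2 the median of the ISGs was 0.05, and 35 of the 44 were above 0. Without the filter on low counts 6 ISGs were called (1.58% of all genes), and the fit with the replicate number as a block called 0 (0.478%). Leaving out PTRVITRO replicate 1 called 1 ISG, Rsad2 (0.322%). Leaving out PVITRO replicate 1, 2 or 3 called 0 ISGs (0.0757%, 0.448% and 0.062% of all genes), as did leaving out PTRVITRO replicate 2 or 3 (0.0841% and 0.0549%). Leaving out any 1 library left between 35 and 41 ISGs above 0 and put the median between 0.05 and 0.14. ISGs at an unadjusted p below 0.05 numbered 20, 8 and 8 without PVITRO replicate 1, 2 or 3, beside 8.99%, 13.9% and 9.13% of all genes in either direction. Without PTRVITRO replicate 1, 2 or 3 they numbered 16, 5 and 8, beside 12.2%, 7.88% and 9.0%. ISGs higher in PTRVITRO with groups that did not overlap numbered 24, 12 and 11 without PVITRO replicate 1, 2 or 3 (12.5%, 14.4% and 13.4% of all genes). They numbered 22, 11 and 14 without PTRVITRO replicate 1, 2 or 3 (13.4%, 12% and 13.1%). The median deviation of the ISGs from their PVITRO mean was 0.07, -0.09 and 0.02 in the 3 PVITRO libraries and 0.05, 0.14 and 0.10 in the 3 PTRVITRO libraries, so PVITRO replicate 1 lay above PTRVITRO replicate 1. For single genes, the range of the log2 fold change over the 6 fits that each leave out 1 library (leave-one-out range) is given where a fit moved the value by over 1.5 times or changed its sign, which held for 32 of the 44 ISGs. The other 12 were Rsad2, Cmpk2, Mx1, Mx2, Ifit3, Eif2ak2, Oasl1, Trim21, Irgm1, Gbp2, Xaf1 and Rtp4. How far the low library makes up the difference between the groups was not tested.

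**Figure D1:**
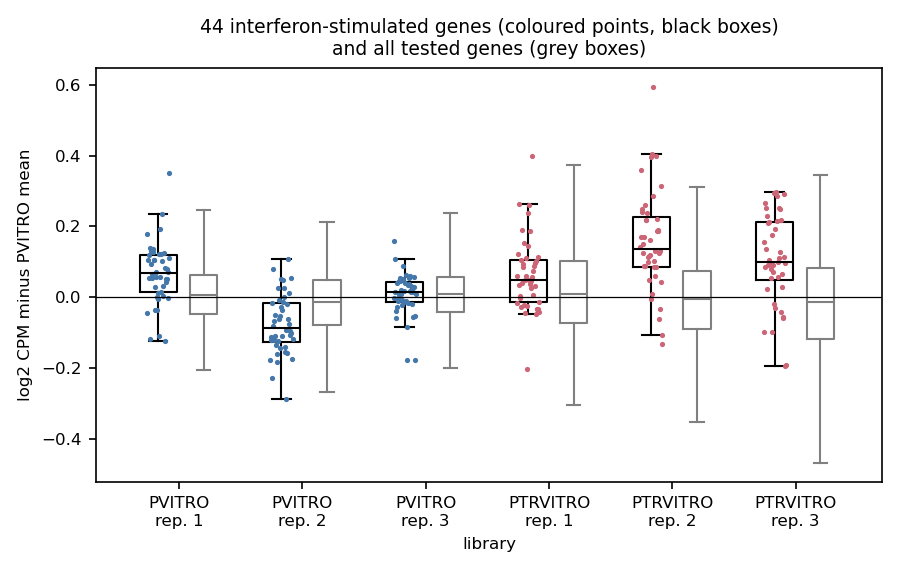
Deviation of each of the 44 genes from its PVITRO mean (log2 CPM, y axis) in each library (x axis). Coloured points are genes, black boxes give their quartiles and median with whiskers to the farthest gene within 1.5 box heights, and grey boxes give the quartiles of all tested genes, with whiskers at percentiles 5 and 95. PVITRO replicate 2 has the lowest median (-0.09) and PTRVITRO replicate 2 the highest (0.14).

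The common biological coefficient of variation was 5.00%, and the 95% interval of the fold change stayed within 1.5-fold in either direction for 41 of the 44 ISGs. The 3 with wider intervals, Mx1, Iigp1 and Epsti1, were at the lowest levels. Between the PVITRO libraries the ISGs varied by a median of 6.73% (coefficient of variation of CPM) and all tested genes by 5.89%, and between the PTRVITRO libraries by 5.22% and 5.55%. Among genes with a mean of 10 CPM or more over the 6 libraries, the 39 ISGs had medians of 6.17% in PVITRO and 5.19% in PTRVITRO, and all 9212 genes 4.24% and 3.85%.

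**Figure D2:**
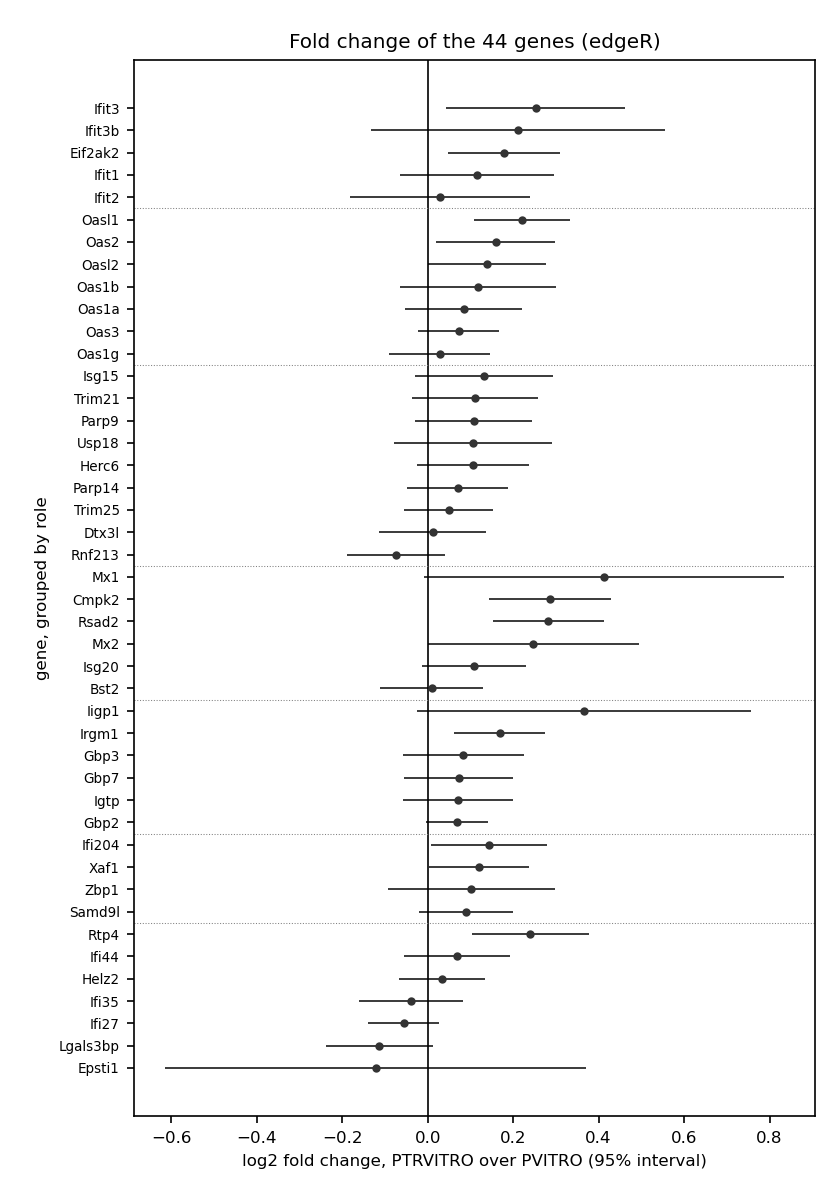
Log2 fold change of PTRVITRO over PVITRO (x axis) for the 44 genes (y axis), grouped by role with dotted lines between the groups. Points are edgeR estimates and bars their 95% intervals. The intervals of 11 genes lie wholly above 0 and none lies wholly below.

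The sequence upstream of the start site was read for the members with a RefSeq promoter entry (GRCm38.p6, 250 bases before to 50 after the start), which 32 of the 44 had. The core of the interferon-stimulated response element, searched on both strands as GAAA, any 2 bases and GAAA again, was found for 16 of those 32 genes (50%), for 3.99% of all 27025 genes with an entry and in 3.44% of all 32851 windows of the same length. TTCNNNGAA, the core of the gamma-activated site, reads the same on both strands and was found for 8 of the 32 (25%), for 9.55% of all genes and in 8.30% of all windows. Among 25 matched genes of the signaling pathway itself, 6 held the first motif and 5 the second. The 16 ISGs with the response element core all had a log2 fold change above 0, with a median of 0.10 and a range of 0.01 to 0.28. Of the 16 without it 12 were above 0, with a median of 0.06. Without PVITRO replicate 2 the medians were 0.05 in both sets, with 14 of 16 and 10 of 16 above 0. A match describes letters only, and no match says only that these letters are absent from this window.

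The stretches below are upstream bases of GRCm38.p6, written 5′ to 3′ on the strand of the gene, with each match to the response element core, on either strand, in capitals. The first set shows the 3 ISGs with the smallest p, which differ in this feature. Rsad2 (chr12:26456453-26456602, minus strand) has 1 match, and Cmpk2 (chr12:26469065-26469203, plus strand) and Oasl1 (chr5:114923090-114923203, plus strand) have no match in their windows.
Rsad2: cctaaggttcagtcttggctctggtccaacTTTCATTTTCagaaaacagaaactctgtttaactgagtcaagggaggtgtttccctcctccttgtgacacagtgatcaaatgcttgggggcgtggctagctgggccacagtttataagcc
Cmpk2: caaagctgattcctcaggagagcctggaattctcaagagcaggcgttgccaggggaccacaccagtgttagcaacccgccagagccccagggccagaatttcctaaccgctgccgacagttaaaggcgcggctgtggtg
Oasl1: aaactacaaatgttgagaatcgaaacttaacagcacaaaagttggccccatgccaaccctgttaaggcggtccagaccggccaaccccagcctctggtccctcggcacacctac

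Isg15 (chr4:156200819-156200968, minus strand) and Ifit1 (chr19:34640744-34640870, plus strand) are textbook targets and are shown for the arrangement of their matches. Isg15 carries 3 overlapping matches on its own strand, and Ifit1 carries 2 separate matches on the opposite strand.
Isg15: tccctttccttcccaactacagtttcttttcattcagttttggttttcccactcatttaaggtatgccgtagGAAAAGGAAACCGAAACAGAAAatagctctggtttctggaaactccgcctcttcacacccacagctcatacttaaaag
Ifit1: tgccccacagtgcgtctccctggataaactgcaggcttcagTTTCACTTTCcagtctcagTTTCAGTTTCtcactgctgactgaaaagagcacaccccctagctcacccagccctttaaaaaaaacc

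The near-identical copies Ifit3 (chr19:34583329-34583528, plus strand) and Ifit3b (chr19:34607757-34607956, plus strand) hold the same 2 matches. These begin at -156 and -122 from the start in Ifit3 and at -188 and -154 in Ifit3b, so the windows are shifted. Their 250 bases upstream were identical at 77.0% of 282 alignment columns. Gap columns count as not identical, so the shift lowers this share, and it does not rank this pair against the next.
Ifit3: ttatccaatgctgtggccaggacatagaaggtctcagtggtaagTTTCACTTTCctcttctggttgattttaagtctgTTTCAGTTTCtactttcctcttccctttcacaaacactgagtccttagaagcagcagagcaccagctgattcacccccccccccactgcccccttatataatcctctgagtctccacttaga
Ifit3b: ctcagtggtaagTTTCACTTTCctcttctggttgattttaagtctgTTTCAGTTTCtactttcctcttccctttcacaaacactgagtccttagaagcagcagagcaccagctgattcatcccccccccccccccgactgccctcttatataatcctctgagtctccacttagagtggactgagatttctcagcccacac

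Oas1a (chr5:120907526-120907645, minus strand) and Oas1g (chr5:120887614-120887733, minus strand), identical at 82.8% of 256 columns, share 2 overlapping matches just before the start.
Oas1a: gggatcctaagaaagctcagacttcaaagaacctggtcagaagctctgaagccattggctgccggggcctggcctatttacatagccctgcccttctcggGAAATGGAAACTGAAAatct
Oas1g: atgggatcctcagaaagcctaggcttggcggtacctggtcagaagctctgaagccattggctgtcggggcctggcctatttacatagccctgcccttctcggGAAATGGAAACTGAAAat

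**Figure D3:**
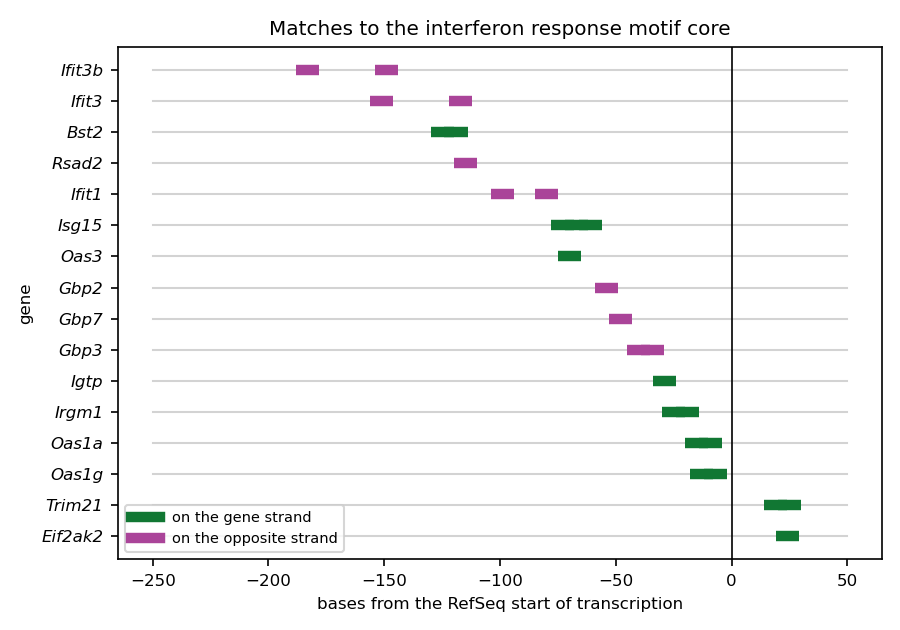
Matches to the response element core (coloured bars) in the windows of the 16 genes that hold the motif (y axis), by distance in bases from the RefSeq start of transcription (x axis, vertical line at the start). Green marks the strand of the gene and purple the opposite strand, and grey lines show the 300-base window searched. In 14 of the 16 genes the matches lie before the start.

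Genes acting on virus replication and release had the highest median of the 7 roles, 0.26 (0.25 and 5 of 6 above 0 without PVITRO replicate 2), with all 6 above 0, 3 higher in PTRVITRO at an unadjusted p below 0.05 (5.26% of all genes) and 3 higher with groups that did not overlap (8.27%). The counts of the other roles stand beside these same shares of all genes. Rsad2 (ENSMUSG00000020641.16, chr12:26442746-26456452, GRCm38) encodes viperin, a radical SAM enzyme that makes a chain-terminating nucleotide. It stood at 68.5, 66.7 and 68.8 CPM in PVITRO and at 75.2, 89.5 and 83.4 CPM in PTRVITRO. Every PTRVITRO library lay above every PVITRO library. The means were 68.0 ± 1.16 and 82.7 ± 7.2 CPM (SD, n = 3 each), a log2 fold change of 0.28 with a standard error of 0.06 (edgeR adjusted p 0.0919). It ranked 92nd of 14217 genes by p, ahead of the other members. DESeq2 called it (adjusted p 0.00595), as did edgeR without PTRVITRO replicate 1 (0.0167), and over the alternatives the adjusted p ran from 1.77e-05 to 0.377 with the fold change between 0.22 and 0.35.

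Cmpk2 (ENSMUSG00000020638.8, chr12:26469204-26479837), a mitochondrial nucleotide kinase gene, lies next to Rsad2 on the other strand, 12751 bases away. Its level was 24.6, 24.1 and 25.4 CPM in PVITRO and 29.1, 32.7 and 28.2 CPM in PTRVITRO, again with no overlap. The log2 fold change was 0.29 ± 0.06 (standard error, edgeR adjusted p 0.122), nearly that of its neighbour, and 0.27 without PVITRO replicate 2. It was called only without the filter on low counts (adjusted p 0.00248, highest over the alternatives 0.433).

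Mx1 and Mx2 belong to a family of dynamin-like GTPases that, where intact, trap viral nucleoprotein. Many inbred mouse strains carry disrupted copies, and the annotation lists Mx2 as a polymorphic pseudogene, so only RNA levels are described. Mx1 was near the bottom of the list at 1.46, 1.64 and 1.65 CPM in PVITRO and 1.91, 2.44 and 1.96 CPM in PTRVITRO (34 to 68.9 estimated counts). The groups did not overlap, and the log2 fold change of 0.41 was the largest among the 44, but its 95% interval ran from -0.01 to 0.83 (edgeR adjusted p 0.445). Mx2 had 7.84, 6.78 and 6.04 CPM against 7.80, 8.36 and 8.36 CPM, and PVITRO replicate 1 overlapped PTRVITRO (log2 fold change 0.25, edgeR adjusted p 0.438). The copies match at 95.3% over 843 bases, so reads of that stretch may be split between them. Their sum was 8.46 ± 0.801 CPM in PVITRO and 10.3 ± 0.543 CPM in PTRVITRO (log2 ratio 0.28, n = 3 each, two-sided exact permutation p 0.1, the smallest that 3 against 3 allows).

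Bst2 and Isg20 completed this role. Bst2, tetherin, which holds budding virions at the cell surface, had the highest level per kb of exon among the ISGs and stood at 156.5, 133.3 and 142.9 CPM in PVITRO and 148.9, 144.9 and 141.0 CPM in PTRVITRO. The PTRVITRO libraries fell inside the PVITRO range (log2 fold change 0.01, 95% interval -0.11 to 0.13), and the leave-one-out range was -0.04 (without PVITRO replicate 2) to 0.08 (without PVITRO replicate 1). For Isg20, an RNA exonuclease gene, the log2 fold change was 0.11 (edgeR adjusted p 0.502, leave-one-out range 0.06 to 0.15).

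**Figure D4:**
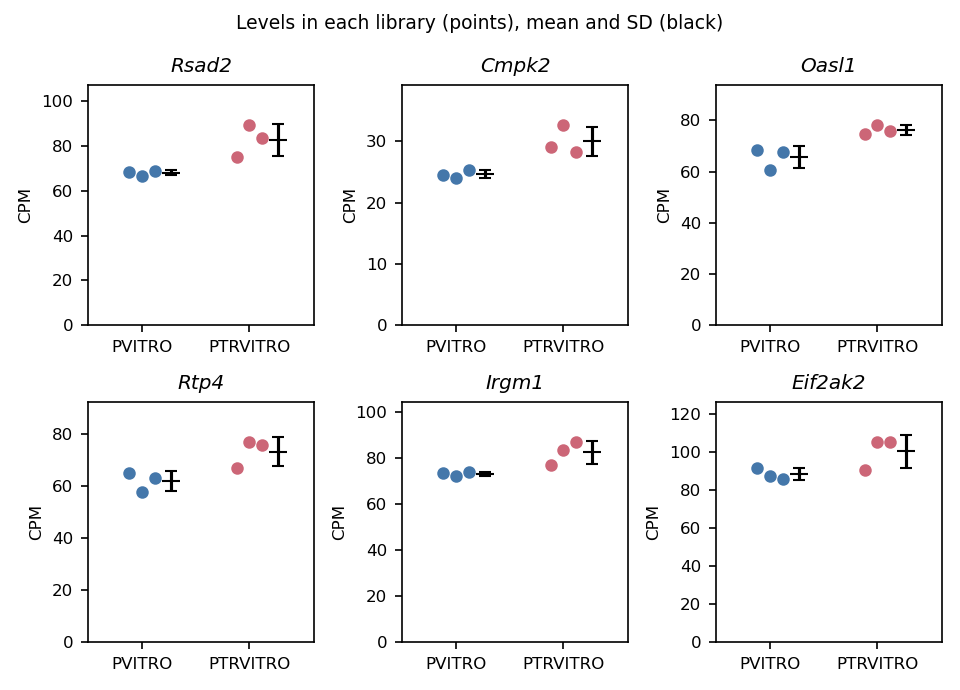
Levels of the 6 genes with the smallest p (CPM, y axes from 0) in the PVITRO and PTRVITRO libraries. Coloured points are libraries, and black marks give the mean and SD of 3. The groups do not overlap for Rsad2, Cmpk2, Oasl1, Rtp4 and Irgm1, while for Eif2ak2 PVITRO replicate 1 (91.7 CPM) lies above PTRVITRO replicate 1 (90.4 CPM).

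All 5 genes of RNA binding and translation block had log2 fold changes above 0 (median 0.18, and 0.10 with 4 above 0 without PVITRO replicate 2), and 2 of them, Eif2ak2 and Ifit3, had an unadjusted p below 0.05. Eif2ak2 encodes PKR, the kinase that halts translation on meeting double-stranded RNA. Its values were 91.7, 87.4 and 85.9 CPM in PVITRO and 90.4, 105 and 105.2 CPM in PTRVITRO. PTRVITRO replicate 1 lay within the PVITRO range and the other two above it (log2 fold change 0.18 ± 0.06 standard error, edgeR adjusted p 0.278, and 0.17 without PVITRO replicate 2).

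The Ifit genes, of a family that acts on foreign RNA and its translation, sit within a cluster on chromosome 19. Ifit3 had 10.5, 8.98 and 9.88 CPM in PVITRO and 10.6, 12.6 and 11.8 CPM in PTRVITRO. The groups stood just apart (log2 fold change 0.25, edgeR adjusted p 0.331). Ifit3b, identical to Ifit3 at 97.8% over 1700 bases, had 3.34, 2.604 and 3.31 CPM against 3.70, 3.64 and 3.25 CPM, with overlap (log2 fold change 0.21, edgeR adjusted p 0.657, leave-one-out range 0.10 to 0.28). Since reads of the shared stretch may be split between the copies, they were also summed, which gave 12.9 ± 1.17 CPM in PVITRO and 15.2 ± 0.938 CPM in PTRVITRO. The summed libraries did not overlap (log2 ratio 0.24, n = 3 each, exact permutation p 0.1), and without PVITRO replicate 2 the ratio was 0.17 with an exact permutation p of 0.2. Ifit1 and Ifit2 had log2 fold changes of 0.11 and 0.03, with edgeR adjusted p of 0.639 and 0.941. For Ifit1 the highest of the 6 libraries was PVITRO replicate 1 (29.7 CPM), and the leave-one-out range of the gene was 0.03 (without PVITRO replicate 2) to 0.21 (without PVITRO replicate 1). For Ifit2 the range was -0.05 to 0.11.

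All 7 genes of the oligoadenylate synthetase (OAS) family, which sit in clusters on chromosome 5, had log2 fold changes above 0, with a median of 0.12 (0.07 and 6 above 0 without PVITRO replicate 2) and 2 at an unadjusted p below 0.05. Oasl1 (ENSMUSG00000041827.15, chr5:114923240-114937915), whose protein lacks synthetase activity and restrains IRF7 production, had 68.4, 60.6 and 67.5 CPM in PVITRO. In PTRVITRO it had 74.6, 78.4 and 75.8 CPM. The groups did not overlap, and the PTRVITRO libraries lay close together. The log2 fold change was 0.22 ± 0.05 (standard error, edgeR adjusted p 0.139) and 0.17 without PVITRO replicate 2. DESeq2 called it (adjusted p 0.0395), with 0.00338 to 0.444 over the alternatives.

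Its neighbour Oasl2, an OAS-like gene 11005 bases away, had 92.7, 77.3 and 85.3 CPM in PVITRO and 90.5, 98.7 and 91.4 CPM in PTRVITRO. PVITRO replicate 1 lay inside the PTRVITRO range (log2 fold change 0.14, edgeR adjusted p 0.439, leave-one-out range 0.07 to 0.21). Oas2, which makes the oligoadenylate that activates RNase L, had 45.1, 37.9 and 40.9 CPM against 44.3, 46.3 and 47.7 CPM. These groups overlapped through PVITRO replicate 1 (log2 fold change 0.16, edgeR adjusted p 0.362, leave-one-out range 0.10 to 0.23). Oas1a and Oas1g are identical at 97.6% over 1861 bases. Their sum was 132.1 ± 9.99 CPM in PVITRO and 138.0 ± 6.29 CPM in PTRVITRO (log2 ratio 0.06, n = 3 each, exact permutation p 0.4), and the groups overlapped. Without PVITRO replicate 2 the log2 ratio of the sums was 0.03. Oas1a alone had 90.9, 78.0 and 79.3 CPM in PVITRO and 82.4, 90.0 and 90.8 CPM in PTRVITRO. Oas1g had 52.6, 47.0 and 48.3 CPM and 48.3, 52.3 and 50.1 CPM. The leave-one-out ranges of these copies were 0.04 to 0.16 and -0.01 to 0.08. Oas1b (log2 fold change 0.12) and Oas3 (0.07) had edgeR adjusted p of 0.636 and 0.565, with leave-one-out ranges of 0.07 to 0.18 and 0.05 to 0.11. The annotation lists Oas1b, like Mx2, as a polymorphic pseudogene, so only its RNA level is described.

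The 9 genes of ISG15 conjugation, ubiquitin ligation and ADP-ribosylation had a median log2 fold change of 0.11 (0.04 and 7 above 0 without PVITRO replicate 2), with 8 above 0, 1 below and 0 at an unadjusted p below 0.05. Isg15, a ubiquitin-like protein gene with the second highest level per kb, had 87.0, 69.7 and 81.7 CPM in PVITRO and 84.0, 92.0 and 84.5 CPM in PTRVITRO. PVITRO replicate 2 was far below the other 5 libraries, which overlapped. The log2 fold change was 0.13 (95% interval -0.03 to 0.29, edgeR adjusted p 0.536), with a leave-one-out range of 0.04 (without that library) to 0.21 (without PVITRO replicate 1). Usp18, which removes ISG15 and damps the receptor, and Herc6, the ISG15 ligase of the mouse, both had 0.11, with leave-one-out ranges of 0.03 to 0.18 and 0.05 to 0.16. The lowest value of each came from the fit without PVITRO replicate 2. Herc6 had 50.35, 42.99 and 47.47 CPM in PVITRO and 52.09, 50.22 and 48.60 CPM in PTRVITRO, with overlap.

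The groups did not overlap for Parp9 and Trim21. Parp9, which acts with Dtx3l, had 38.75, 33.71 and 39.65 CPM in PVITRO and 40.25, 40.48 and 39.68 CPM in PTRVITRO, so PVITRO replicate 3 lay just below the lowest PTRVITRO library. Its log2 fold change was 0.11 (edgeR adjusted p 0.549), with a leave-one-out range of 0.04 (without PVITRO replicate 2) to 0.15. Trim21, a cytosolic antibody receptor and ubiquitin ligase gene, had 14.47, 14.12 and 13.98 CPM against 14.68, 15.39 and 16.05 CPM (log2 fold change 0.11, adjusted p 0.575 by edgeR). Dtx3l is transcribed from the opposite strand beside Parp9 with 458 shared exon bases, and its log2 fold change was 0.01 (leave-one-out range -0.02 to 0.06). Parp14 and Trim25 had 0.07 and 0.05, with leave-one-out ranges of 0.02 to 0.12 and 0.02 to 0.10. Rnf213, a giant ubiquitin ligase gene, was the exception below 0, at 249, 264.7 and 253.1 CPM in PVITRO and 222.1, 254.7 and 252 CPM in PTRVITRO. PTRVITRO replicate 1 was the lowest library, and the other two PTRVITRO libraries lay among the PVITRO values (log2 fold change -0.07, edgeR adjusted p 0.633). Without PTRVITRO replicate 1 the value was -0.01, the upper end of a leave-one-out range that began at -0.11.

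All 6 interferon-inducible GTPases, which attack the membranes around intracellular pathogens, had log2 fold changes above 0, with a median of 0.08 (0.05, again all above 0, without PVITRO replicate 2), and 3 had groups that did not overlap (8.27% of all genes in this direction). Irgm1 (ENSMUSG00000046879.7, chr11:48861968-48871683), a regulator of the immunity-related GTPases, had 73.4, 72.3 and 74.1 CPM in PVITRO and 77.1, 83.5 and 87.0 CPM in PTRVITRO. The PVITRO libraries lay close together and all below PTRVITRO. The log2 fold change was 0.17 ± 0.05 (standard error, edgeR adjusted p 0.208), and it was 0.16 without PVITRO replicate 2. Gbp2, a guanylate-binding protein gene, had 248.1, 245.9 and 242.9 CPM against 253.3, 263.8 and 255.6 CPM. Its groups did not overlap, but the difference was 1.05-fold (log2 fold change 0.07, edgeR adjusted p 0.470). Gbp3 and Gbp7, in the same cluster on chromosome 3, had 0.08 and 0.07. Their leave-one-out ranges were 0.0072 to 0.15 and 0.0044 to 0.13, lowest without PVITRO replicate 2 and highest without PVITRO replicate 1. Gbp7 had 88.28, 74.61 and 84.39 CPM in PVITRO and 85.46, 85.69 and 88.78 CPM in PTRVITRO, with overlap. Igtp had 0.07 (leave-one-out range 0.02 to 0.11), with 162 exon bases shared with Irgm2 on the same strand. Iigp1, at 51 to 103 counts, had 2.83, 1.94 and 2.48 CPM in PVITRO and 3.18, 3.18 and 2.86 CPM in PTRVITRO. Its groups stood just apart (log2 fold change 0.37, 95% interval -0.02 to 0.76, edgeR adjusted p 0.470), and the leave-one-out range was 0.22 (without PVITRO replicate 2) to 0.50.

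Sensing of nucleic acid and cell death were covered by 4 genes, all above 0 (median 0.11, and 0.07 without PVITRO replicate 2), of which 2 had an unadjusted p below 0.05 and none had groups that did not overlap. Ifi204, a DNA sensor gene of the PYHIN family, was one of the most abundant ISGs at 278.7, 327.2 and 306.8 CPM in PVITRO and 310.5, 345.3 and 353.1 CPM in PTRVITRO. PVITRO replicate 1, not replicate 2, was its lowest library, and the groups overlapped (log2 fold change 0.14, edgeR adjusted p 0.414). Without PVITRO replicate 1 the value was 0.09, the lower end of a leave-one-out range that reached 0.20. Ifi204 shares near-identical stretches with Mndal and Ifi211, and the sum of the 3 gave a log2 ratio of 0.14 with overlapping groups (n = 3 each, exact permutation p 0.2). Xaf1, which opposes the apoptosis inhibitor XIAP, had 46.4, 42.0 and 43.3 CPM against 46.9, 50.01 and 45.9 CPM. PVITRO replicate 1 lay inside the PTRVITRO range (log2 fold change 0.12, edgeR adjusted p 0.423, 0.09 without PVITRO replicate 2). Zbp1, a sensor of Z-form nucleic acid that starts necroptosis, and Samd9l, a restrictor of growth and translation, had 0.10 and 0.09, with leave-one-out ranges of 0.02 to 0.17 and 0.05 to 0.12. Samd9l had 46.41, 42.49 and 45.65 CPM in PVITRO and 48.15, 48.84 and 45.74 CPM in PTRVITRO, and PVITRO replicate 1 lay inside the PTRVITRO range. Like Ifi204, the genes Isg15, Herc6, Trim21, Gbp7, Samd9l and Rtp4 hold a stretch of 215 to 688 bases that another annotated gene matches at 95.1% or more, so reads of it may be split.

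The 7 remaining ISGs split, with 3 above 0 and 4 below (median -0.04, and -0.05 with 3 above 0 without PVITRO replicate 2). Rtp4 (ENSMUSG00000033355.6, chr16:23520291-23614222), a receptor-trafficking protein gene, had 65.1, 57.7 and 63.2 CPM in PVITRO and 67.0, 77.0 and 75.8 CPM in PTRVITRO. The groups did not overlap, with PTRVITRO replicate 1 close to PVITRO replicate 1. The log2 fold change was 0.24 ± 0.06 (standard error, edgeR adjusted p 0.176) and 0.19 without PVITRO replicate 2. Ifi44 and Helz2, a helicase gene, had 0.07 and 0.03, with leave-one-out ranges of 0.02 to 0.12 and 0.01 to 0.07.

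Lgals3bp, a secreted galectin-binding glycoprotein gene, had 314.4, 268.2 and 293 CPM in PVITRO and 283.1, 270.3 and 255.1 CPM in PTRVITRO. PVITRO replicate 2 overlapped the PTRVITRO libraries. Its log2 fold change was -0.11 (95% interval -0.24 to 0.01, edgeR adjusted p 0.498), with a leave-one-out range of -0.17 (without PVITRO replicate 2) to -0.05 (without PVITRO replicate 1). Ifi27, a mitochondrial protein gene and the third highest per kb, had 164.7, 161.3 and 153.9 CPM against 154.8, 153.2 and 153.7 CPM. PVITRO replicate 3 lay inside the narrow PTRVITRO range (log2 fold change -0.06, edgeR adjusted p 0.617, leave-one-out range -0.08 to -0.03). Ifi35 had 36.3, 32.1 and 34.7 CPM in PVITRO and 33.5, 33.5 and 32.9 CPM in PTRVITRO. All 3 PTRVITRO values fell between the PVITRO extremes (log2 fold change -0.04, leave-one-out range -0.09 to 0.01). Epsti1, at 24 to 50 counts, had 2.01, 1.37 and 1.37 CPM in PVITRO and 1.54, 1.41 and 1.35 CPM in PTRVITRO. PVITRO replicate 1 was well above the other 5 libraries, and the value of -0.12 had a 95% interval of -0.61 to 0.37. Without PVITRO replicate 1 it was 0.08, and without PVITRO replicate 2 it was -0.22.

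**Figure D5:**
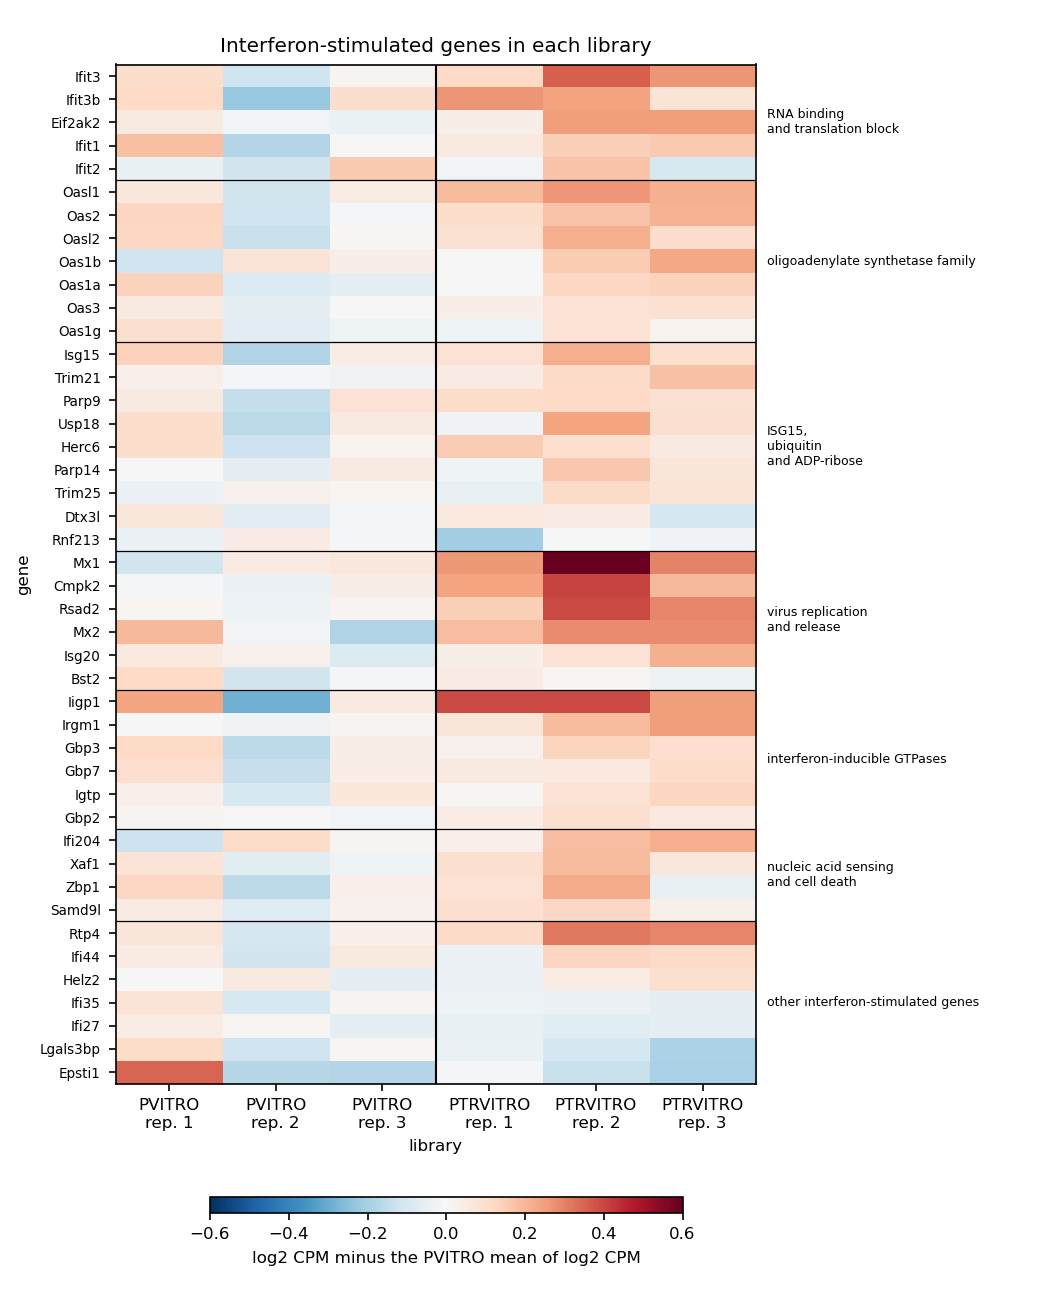
Log2 CPM of each of the 44 genes (y axis, grouped by role) in each library (x axis), as the difference from the mean of PVITRO (colour scale, red above and blue below). PVITRO replicate 2 is blue for most genes, the PTRVITRO libraries are red for most, and for Lgals3bp, Ifi27, Ifi35, Rnf213 and Epsti1 all 3 PTRVITRO libraries lie below the PVITRO mean.

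The ISGs differed far more in level than between groups. Per kb of exon, Bst2 was highest at 160.1 CPM per kb (mean of 6 libraries), followed by Isg15 (110.0), Ifi27 (107), Gbp2 (100), Lgals3bp (98.6) and Ifi204 (89.9). In PVITRO, Bst2 at 159.7 ± 12.9 CPM per kb stood clear of Isg15 at 105.1 ± 11.7 CPM per kb (SD, n = 3), while Isg15, Ifi27 (109 ± 3.79) and Lgals3bp (102.5 ± 8.12) did not differ beyond their SDs. At the other end were Iigp1 (0.471), Mx1 (0.487) and Epsti1 (0.650), followed by Ifit3b (1.65), Mx2 (2.08) and Ifit2 (3.35 CPM per kb). In PVITRO 38 of the 44 had a mean of at least 10 CPM.

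Genes of the signaling pathway were counted from a list of 29, which also holds feedback inhibitors and ISG15 conjugation enzymes. Of the 29 genes 24 were tested, 15 above 0 and 9 below. Their median log2 fold change was 0.03 (0.01 without PVITRO replicate 2, again 15 above 0). EdgeR, DESeq2 and limma-voom each called 0 of the 24, where they called 0.246%, 0.781% and 0.218% of all genes. At an unadjusted p below 0.05 there were 4 of the 24, 3 higher and 1 lower in PTRVITRO, beside 5.26% and 6.13% of all genes. Among the ligands, Ifnb1 had 0, 4 and 1 counts in PVITRO and 6, 4 and 2 counts in PTRVITRO, at or near the floor of 3. Ifna2 and Ifna4 were at 0 in every library, which allows up to 0.168 CPM in the shallowest, and Ifne and Ifnk had at most 2 counts. No ligand of the list could therefore be compared at this depth. The receptor genes Ifnar1 and Ifnar2 were at 45.7 ± 3.13 and 55.1 ± 1.71 CPM in PVITRO and at 47.0 ± 1.32 and 56.3 ± 1.54 CPM in PTRVITRO (log2 fold changes 0.04 and 0.03, leave-one-out ranges -0.01 to 0.09 and 0.01 to 0.06). The kinase genes Jak1 and Tyk2 had -0.02 and -0.09. The leave-one-out range was -0.05 to 0.01 for Jak1. For Tyk2 it was -0.25 (without PTRVITRO replicate 1) to -0.0018 (without PTRVITRO replicate 3).

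Of the transcription factor genes, Stat2 had 37.4, 33.3 and 34.4 CPM in PVITRO and 39.7, 41.9 and 40.2 CPM in PTRVITRO. The groups did not overlap (log2 fold change 0.22 ± 0.05 standard error, edgeR adjusted p 0.170, 0.18 without PVITRO replicate 2). Its partner Irf9 had 0.10, with an edgeR adjusted p of 0.501, a leave-one-out range of 0.06 to 0.15 and overlapping groups. Irf7, Irf1, Irf3 and Irf5 had 0.03, 0.04, 0.06 and -0.02. Their leave-one-out ranges were -0.05 to 0.11, -0.01 to 0.08, 0.04 to 0.11 and -0.14 to 0.09. Socs1, a feedback inhibitor of JAK kinases, had 10.2, 10.1 and 8.81 CPM against 12.1, 11.1 and 11.4 CPM, with no overlap (log2 fold change 0.25, edgeR adjusted p 0.306). Among the sensors, Tlr3, an endosomal receptor for double-stranded RNA, had -0.18 (edgeR adjusted p 0.408), and Ifih1, its cytosolic counterpart MDA5, had 0.11 (adjusted p 0.424, leave-one-out range 0.07 to 0.16).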

How the data were processed

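The 44 ISGs, their roles, the signaling list and the markers were chosen with earlier results of these data known. The authors deposited a single table of RSEM estimated counts per gene, unscaled, from TruSeq stranded mRNA libraries. The submitters' processing notes name FastQC 0.11.5, STAR 2.6.0a, RSEM 1.3.1 and GRCm38. Whether RSEM used the strand is not given in the sources used here, so reads of genes with overlapping exons on opposite strands may be shared.

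Estimated counts were rounded and low genes removed with filterByExpr (minimum count 10, minimum total 15), which left 14217 of 53465. Libraries were scaled by the upper quartile, as in the study's methods, and compared by the edgeR 4.0.16 quasi-likelihood F test in R 4.3.3 (terms: group alone). Benjamini-Hochberg adjustment ran over all tested genes, and a call is an adjusted p under 0.05. Standard errors come from F. CPM is given as mean ± SD. DESeq2 1.42.0 and limma-voom (limma 3.58.1), other scalings and filters, a replicate block and leaving out each library were alternatives. The counts of ISGs at an unadjusted p below 0.05 and with groups that do not overlap were followed through these settings, and group medians without PVITRO replicate 2 computed, as choices made after seeing the data.

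Near-identical genes were found with BLAST+ 2.17.0 (at least 95% identity over 200 bases), and for copy sums a two-sided exact permutation test was run over 20 arrangements. The sums other than Ifit3 with Ifit3b were chosen after the copies were found. The edgeR fit at its main settings was tested on simulated counts with known changes. Values in every library are given for the 12 ISGs with the smallest p, the 6 with the highest level per kb, those below 0 and near-identical copies, and values of other genes with groups apart were added after they were seen. The labels do not say whether libraries came from separate cultures, and the study describes replicates as technical unless otherwise stated, so p-values measure only the spread between these libraries. No 2 libraries of a group agreed within sampling noise (chi-square per gene 2.6 to 7.61). Every sample column of the table was used. Values of 1 gene of the signaling list are not reported here.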

Additional observations from a re-analysis of the deposited data

How the results depend on the processing

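Over scalings, tools, filters and the replicate block, 39 of the 44 ISGs stayed above 0 by count, and the median log2 fold change ran from 0.10 to 0.12. ISGs called numbered 2 under DESeq2 and 6 without a filter on low counts (Cmpk2, Rsad2, Eif2ak2, Rtp4, Oasl1 and Ifi204), and the signaling list had 1 call without that filter, Stat2. All genes called numbered 111 under DESeq2, 400 without a filter and 54 with at least 10 counts in every sample, against 35. The causes were not tested. The replicate block gave 68 calls over all genes and 0 ISGs. The shared replicate numbers did not pair the libraries (correlations of the deviations 0.109, 0.095 and -0.0556 for replicates 1, 2 and 3), so that fit has no design behind it.

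Leaving out each library gave 0 to 1 ISGs called (Rsad2 without PTRVITRO replicate 1), 5 to 20 at an unadjusted p below 0.05, 11 to 24 with groups that did not overlap and 8 to 64 calls over all genes. In these refits 11 values of single ISGs changed sign, 252 kept their direction and call and 1 became a call. The 11 were of 6 genes, whose leave-one-out fits ranged from -0.0518 to 0.1128 (Ifit2), -0.0061 to 0.0806 (Oas1g), -0.019 to 0.0589 (Dtx3l), -0.0442 to 0.0765 (Bst2), -0.0874 to 0.0061 (Ifi35) and -0.2224 to 0.083 (Epsti1). Signaling genes near 0 also changed sign. With no scaling factor Ddx58 had 0.0073 and Mavs 0.0042, and limma-voom gave Mavs 0.0031. Across the leave-one-out fits the ranges were -0.0123 to 0.0862 for Ifnar1, -0.0453 to 0.0112 for Jak1, -0.0138 to 0.0828 for Irf1, -0.1396 to 0.0897 for Irf5, -0.0483 to 0.1108 for Irf7, -0.029 to 0.023 for Ddx58, -0.0749 to 0.0473 for Mavs, -0.0119 to 0.0287 for Mb21d1, -0.0352 to 0.0729 for Tmem173, -0.0509 to 0.0375 for Ikbke, -0.0098 to 0.1274 for Socs3 and -0.1147 to 0.1761 for Uba7. With 3 libraries a group and no statement of separate cultures, the spread between treated cultures was not measured, and depth limits the low members Mx1, Iigp1, Epsti1 and the ligands.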
